A study of Mus musculus with 67 samples.

Results

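The mitochondrially encoded genes of mouse preimplantation embryos were the 28 genes, of 26414 in the deposited expression table, whose symbol starts with mt-. The rule for membership used the symbol alone. They comprised 13 messenger RNA genes, 2 ribosomal RNA genes and 13 transfer RNA genes. RNA was measured by SMART-seq2, a full-length protocol that primes on poly(A) tails, in 67 libraries of C57BL/6 embryos made by in vitro fertilization from females of 6 weeks and males of 10 weeks. The light group received 5000 lx during 6 h as 2-cell embryos, followed by culture in the dark, and control embryos were cultured in the dark at 0 lx throughout. Control and light libraries numbered 7 and 6 for 2-cell embryos, 6 and 8 for 4-cell embryos, 4 and 8 for 8-cell embryos, 13 and 6 for morulae and 3 and 6 for blastocysts. The study's methods describe cells picked from dissociated embryos, whereas the labels number embryos, so the number of independent embryos behind each group is uncertain and p-values measure the spread between libraries only.

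The mitochondrial genome is a small circle present in many copies per cell. Both of its strands are transcribed into long precursors, which are cut mostly at the transfer RNAs to release the messenger and ribosomal RNAs. The messenger RNAs encode subunits of respiratory complexes I, III, IV and V, and all other subunits, together with the polymerase and the translation factors, come from nuclear genes. Oocytes carry a large store of mitochondria, which is divided among the cells of the cleaving embryo. By the annotation of GENCODE M21 (GRCm38), 19 of the 28 genes lie on the plus strand of chromosome M and 9 on the minus strand, namely mt-Nd6 and 8 transfer RNA genes. The annotation holds 37 genes on chromosome M, and the other 9, all transfer RNA genes of the plus strand, were not analysed here.

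Nearly every value in the table, at least 99.97% in each library with zeros counted as whole, was a whole number of reads over a library's size factor. Values were not divided by gene length. Levels of genes with and without a nuclear copy are compared per kb of gene. Shares of signal, the ratios between genes and the ranking by abundance use values not corrected for length. Libraries held 836011 to 8551674 reads (median 4632053), and 54.0% to 89.3% of them fell on CT010467.1 and Gm42418. The mitochondrial share of a library was taken over the reads outside those 2 genes, and the size factor cancels in it. The ratio of Gm42418 to CT010467.1 was 3.00 ± 0.668 (SD) in control and 1.65 ± 0.0697 in light 2-cell libraries, 2.21 ± 0.146 and 1.63 ± 0.0585 in 8-cell and 3.22 ± 0.608 and 1.55 ± 0.0653 in morula libraries, each time without overlap. The part of this ratio in the results was not tested. The ratio was 2.70 ± 1.37 and 1.54 ± 0.0753 in 4-cell and 1.43 ± 0.0139 and 1.43 ± 0.162 in blastocyst libraries, with overlap. Control 4-cell library 3 had the lowest such ratio of its group, 1.61, and mt-Nd6 and mt-Rnr1 values of 62.3 and 401.0, also the lowest of its group. Libraries 1, 2, 4, 5 and 6 of that group had ratios of 4.55, 4.35, 1.89, 1.98 and 1.80. Their mt-Nd6 values were 956.0, 496.0, 190.6, 460.4 and 641.0. Summed levels of 9 cumulus and granulosa cell genes and of 7 sperm genes, in CPM over the genes outside those 2, did not exceed 51.8 in any library. Summed levels of 8 oocyte genes lay between 1893 and 4364 CPM in control and between 545 and 1779 CPM in light 2-cell libraries, and between 193 and 302 CPM in control and 59.0 and 167 CPM in light 8-cell libraries. Summed levels of 7 genes of the transient 2-cell programme lay between 40.5 and 284 CPM (median 144) in control and between 0.894 and 90.4 CPM (median 3.30) in light 8-cell libraries, and between 0 and 6.79 CPM in control 4-cell libraries. The part of both lists in the results was not tested. Control morula library 26 had 57.9% of its reads on CT010467.1 and Gm42418, where the other 12 control morulae had at least 75.8%, and without it mt-Nd6 and mt-Te were called in morulae as with it (-1.64 and -2.88).

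Several messenger RNA genes have a near-identical copy on nuclear chromosome 1, which limits how reads can be assigned to them. The annotated copies form a block at chr1:24611535-24616197 (GRCm38, minus strand) of 4663 bases with 7 genes. Gm28661 was identical to mt-Co2 over 681 bases, Gm10925 to mt-Atp6 over 678, Gm28437 to mt-Co3 over 783, Gm10222 to mt-Nd4l over 294 and Gm28439 to the first 876 of 1378 bases of mt-Nd4. Gm29216 matched 483 of the 1545 bases of mt-Co1 at 99.8% identity, and Gm28438 matched 345 bases of mt-Nd3 at 99.7%. The mt-Nd4l gene (chrM:9877-10173, plus strand, GRCm38, RNA for a complex I subunit) is printed because almost its whole length is shared, and capitals mark the bases identical to Gm10222:
mt-Nd4l: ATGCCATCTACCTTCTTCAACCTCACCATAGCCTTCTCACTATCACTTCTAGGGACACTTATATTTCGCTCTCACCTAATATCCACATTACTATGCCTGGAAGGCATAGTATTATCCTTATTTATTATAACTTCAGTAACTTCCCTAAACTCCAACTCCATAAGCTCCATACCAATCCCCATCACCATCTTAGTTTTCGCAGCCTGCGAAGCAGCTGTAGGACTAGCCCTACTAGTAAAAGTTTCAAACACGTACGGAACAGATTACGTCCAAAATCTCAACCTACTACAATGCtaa
The beginnings of mt-Nd3 (chrM:9459-9806) and Gm28438 are printed because their single difference, T3C counted from 1 at the first base of each gene, lies here and is capitalized:
mt-Nd3: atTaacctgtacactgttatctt
Gm28438: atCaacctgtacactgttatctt
A read from the capitalized stretch of mt-Nd4l fits both genes equally well. All these sequences were read from GENCODE M21, not from the mm9 build that the submitters' notes name.

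Levels were compared per kb between genes with and without such a copy. The 6 messenger RNA genes with a near-identical copy over at least 60% of their bases had mean values between 19.7 per kb (mt-Nd4l) and 730.0 per kb (mt-Nd4), with a median of 49.2. The other 9 messenger and ribosomal RNA genes had mean values between 46.2 per kb (mt-Atp8) and 16750 per kb (mt-Rnr2), with a median of 1771. For mt-Atp8, no annotated copy of at least 99% identity over 100 bases was found. Its last 43 bases are shared with mt-Atp6, and Gm10925 is identical there. The block holds no annotated gene for the rest of mt-Atp8, and the genome sequence between the annotated genes was not searched. The treatment of reads that fit 2 places is not given in the sources used here, so the values of mt-Co2, mt-Atp6, mt-Co3, mt-Nd3, mt-Nd4l and mt-Nd4 may hold only part of their reads, or reads of the copies.

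**Figure D1:**
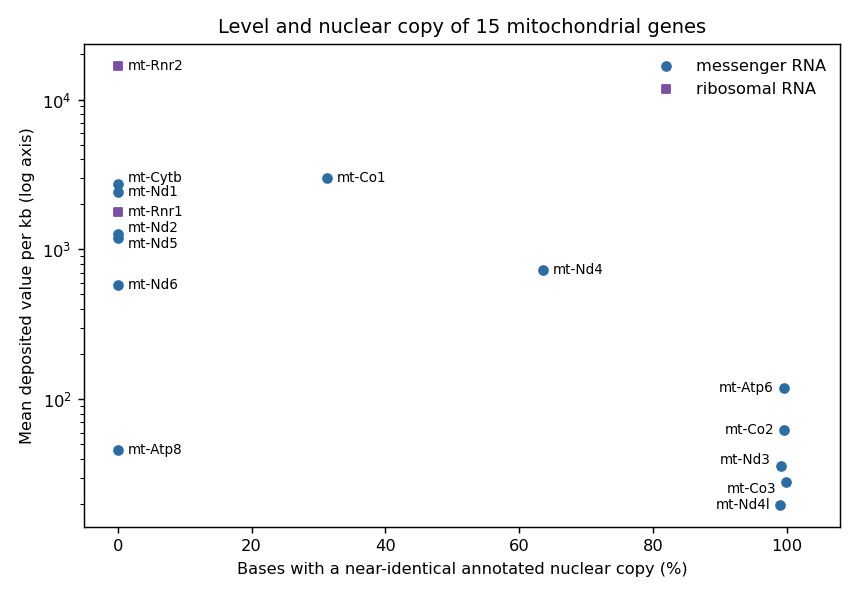
Mean deposited value per kb over 67 libraries (vertical, log axis) against the percent of a gene's bases with an annotated nuclear copy of at least 99% identity (horizontal), for 13 messenger (circles) and 2 ribosomal RNA genes (squares). The 5 genes copied almost throughout sit between 19.7 and 118.5 per kb. At that level mt-Atp8 is the only gene for which no annotated copy of at least 99% identity over 100 bases was found.

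The share of a library's signal on the mitochondrial genes differed between stages in control embryos. It was 6.90% ± 1.33 (SD, n = 7) in 2-cell, 4.61% ± 1.44 (n = 6) in 4-cell, 6.77% ± 0.988 (n = 4) in 8-cell embryos, 3.47% ± 0.461 (n = 13) in morulae and 8.85% ± 0.773 (n = 3) in blastocysts. The morula libraries, between 2.59% and 4.40%, lay below every 2-cell, 8-cell and blastocyst control library. In light embryos the share was 5.65% ± 1.46 (n = 6), 4.40% ± 1.07 (n = 8), 3.87% ± 0.766 (n = 8), 4.09% ± 0.680 (n = 6) and 7.26% ± 3.42 (n = 6) in the same order. Control and light overlapped at every stage but the 8-cell stage. There the 4 control libraries had 6.17%, 6.65%, 6.05% and 8.20%, and the 8 light libraries lay between 2.91% and 5.09%. Counting error was small beside these spreads, since the 95% Wilson interval of a library's share extended at most 0.0821 percentage points to either side. Share of signal cannot tell fewer mitochondrial transcripts per cell from more RNA of other genes.

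**Figure D2:**
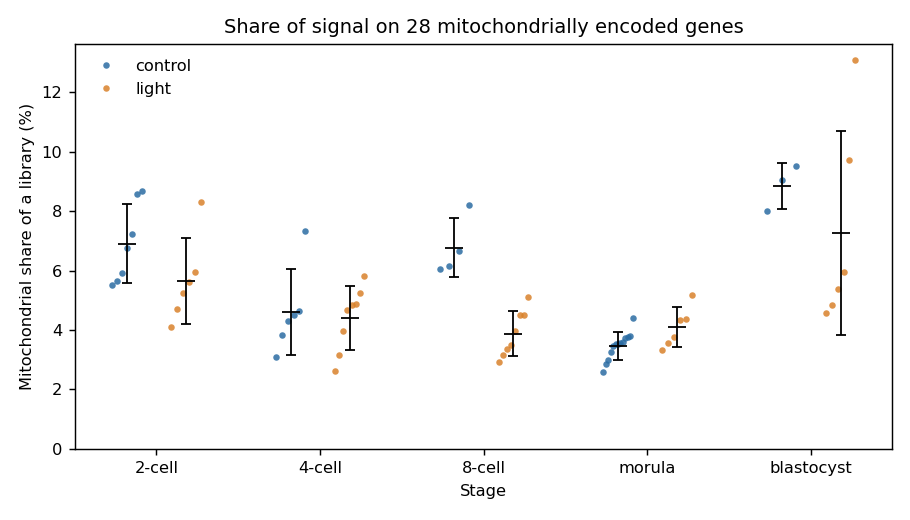
Percent of a library's signal outside CT010467.1 and Gm42418 that fell on the 28 mitochondrial genes, by stage, in control (blue) and light (orange). Each point is a library and bars give mean and SD. In 8-cell libraries every light point, at most 5.09%, lies below every control point, at least 6.05%.

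Within mitochondrial RNA the balance of ribosomal and messenger RNA stood apart in light at 2 stages, in a comparison that no scaling between libraries can alter. The ribosomal RNA genes mt-Rnr1 and mt-Rnr2, the small and large RNAs of the mitochondrial ribosome, took 66.2% ± 1.64 (SD) of mitochondrial signal in control and 73.6% ± 1.22 in light in 8-cell embryos. In morulae they took 61.1% ± 7.04 and 74.7% ± 2.04, and at both stages the groups did not overlap. The 13 messenger RNA genes took the complement, 33.1% ± 1.55 against 25.8% ± 1.23 in 8-cell libraries and 38.1% ± 6.85 against 24.9% ± 2.04 in morulae. In 2-cell embryos ribosomal RNA held 62.7% ± 5.30 in control and 69.1% ± 2.79 in light, and in 4-cell libraries 51.0% ± 9.99 and 65.2% ± 9.27, with overlap at both stages. In blastocysts the means stood in the opposite order, 72.9% ± 4.93 in control and 65.8% ± 1.58 in light, also with overlap. Transfer RNA genes held between 0.244% and 0.825% of mitochondrial signal on average in any group. The protocol primes on poly(A) tails, and the part of that capture in these shares and in the levels of single genes was not tested.

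The ratio of mt-Rnr2 to mt-Rnr1 stood apart in control blastocysts. It was 229.6, 128.6 and 256.2 in the 3 control libraries and lay between 18.7 and 63.9 in the 6 light libraries, so the groups did not overlap. Of the earlier control libraries, a ratio of 62.0 in 4-cell library 3 was the highest, and the others stayed at or below 30.6. In 8-cell embryos the ratio was lower in control, between 11.0 and 12.3, than in light, between 14.1 and 22.5. The order of control and light in 8-cell libraries was thus opposite to that in blastocysts.

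**Figure D3:**
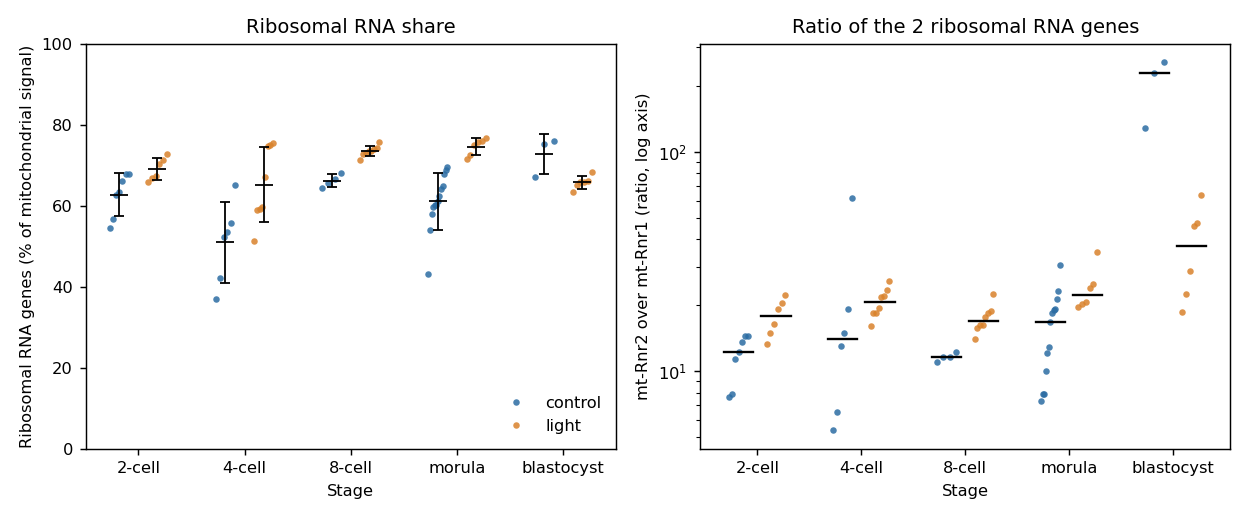
Left, percent of mitochondrial signal on the 2 ribosomal RNA genes, with mean and SD; right, ratio of mt-Rnr2 to mt-Rnr1 on a log axis, with the median as a line; each point is a library of control (blue) or light (orange). The light libraries lie higher on the left at the 8-cell and morula stages (71.4% to 76.8%), and the control blastocysts lie highest on the right.

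Light was compared with control at each stage gene by gene, to find which mitochondrial RNAs differed after the exposure. The test was that of limma on log2 of the value plus 1, across every gene that exceeded 1 in 3 or more libraries of the comparison, and a gene was called when its fold change was at least 2 and its Benjamini-Hochberg adjusted p over all these genes was below 0.05. With the deposited scaling all called mitochondrial genes were lower in light at every stage. In 2-cell embryos 5 of 27 tested genes were called lower and none higher, against 4.96% and 5.53% of all genes. In 4-cell embryos it was 4 of 26 and none, against 0.333% and 1.12%. The 8-cell embryos had 11 of 25 and none, against 3.3% and 5.91%. Morulae had 2 of 26 and none, against 0.821% and 0.355%, and blastocysts had 2 of 22 and none, against 4.98% and 0.353%. The groups did not overlap, with light lower, for 3 genes in 2-cell embryos (2.49% of all genes), 0 in 4-cell embryos (0.16%), 11 in 8-cell embryos (2.29%), 2 in morulae (0.48%) and 1 in blastocysts (11.9%). Leaving out a library moved these counts. Without control 4-cell library 5 no gene was called in limma and without control 4-cell library 3 it was 9, while it was 1 without control 4-cell library 1 or light library 13 and 2 without control library 6 or light library 1, 5, 6, 7 or 14. It was 3 in 2-cell embryos without control library 12, light library 9 or light library 12 and 9 without light library 15. It was 7 in 8-cell embryos without control library 4, 1 in morulae without light library 12, and in blastocysts 0 without control library 2 or 3, 4 without light library 23 and 1 without any other light library.

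Fitted log2 fold changes were below 0 for 25 of 27, 21 of 26, 24 of 25, 24 of 26 and 17 of 22 genes in order of stage. The median log2 fold change of the mitochondrial genes was -0.99, -0.93, -1.36, -0.77 and -0.85, and that of all genes tested was 0.00, 0.13, 0.16, 0.10 and -0.64. The shift of all genes in blastocysts was that under the deposited scaling. With values scaled to the summed genes outside CT010467.1 and Gm42418 it was -0.04 and the mitochondrial median was -0.09. Under that scaling, under quantile normalization and under median ratios no mitochondrial gene was called lower in blastocysts and 1, mt-Rnr1, was called higher, so the direction of the blastocyst calls depends on the scaling. At the 4 earlier stages the mitochondrial median stayed below 0 under each of these scalings.

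**Figure D4:**
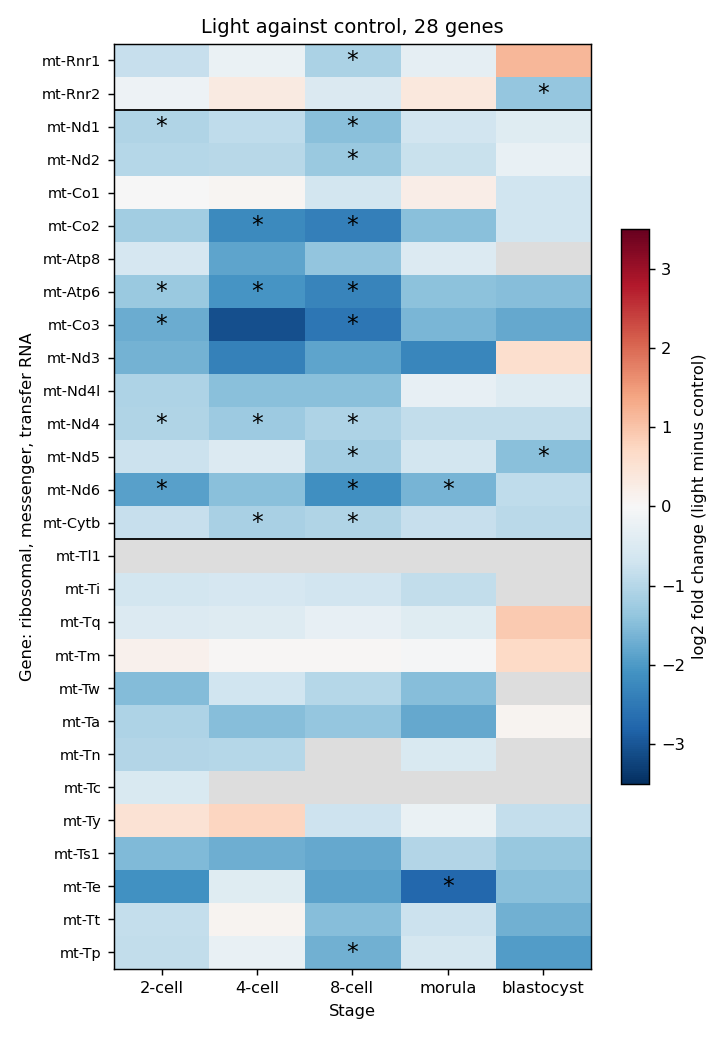
Log2 fold change of light against control (deposited scaling) for 28 genes, ordered within ribosomal, messenger and transfer RNA by position, at 5 stages; blue is lower in light, grey was not tested, and an asterisk marks a called gene. mt-Nd6 is called at 3 stages and mt-Atp6 at 3, the direction of the blastocyst calls depends on the scaling, and no gene is called higher with the deposited scaling.

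Complex I, the NADH dehydrogenase, takes 7 subunits from the mitochondrial genome, and mt-Nd6 was called at 3 stages, each time without overlap. It is the only messenger RNA gene of the minus strand (chrM:13552-14070). Control 2-cell libraries had values from 408.3 to 1290, with a median of 770.3, and light libraries from 132 to 274, with a median of 183. No light library reached the lowest control library. The log2 fold change was -1.89 ± 0.28 (SE, adjusted p = 7.8e-05). In 8-cell embryos the 4 control values were 402.6, 485.0, 362.2 and 491.4, and the 8 light values ran from 51.5 to 165.3 with a median of 97.7. The groups again did not overlap, and the log2 fold change was -2.14 ± 0.30 (adjusted p = 8.0e-05). In morulae control values ran from 201.8 through 407.0 to 921.9 (lowest, median, highest) and light values from 74.2 through 141.0 to 176.4. That was a log2 fold change of -1.63 ± 0.30 (adjusted p = 0.0030), without overlap.

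In 4-cell libraries mt-Nd6 was not called. Control values ran from 62.3 through 478.2 to 956.0 and light values from 47.7 through 130.9 to 216.0, a log2 fold change of -1.48 ± 0.45 (adjusted p = 0.085). The overlap came from control libraries 3 and 4, at 62.3 and 190.6. Without library 3 the log2 fold change was -1.97 (adjusted p = 0.0038) and mt-Nd6 was called, as it was on recovered reads in edgeR (-1.82, adjusted p = 0.025) and DESeq2 (-1.78, adjusted p = 0.0060). In blastocysts the 3 control values were 76.3, 198.3 and 190.7, the light values ran from 41.9 through 74.9 to 175.4, and the difference of -0.89 ± 0.47 was not called (adjusted p = 0.26). SMART-seq2 does not mark the strand, so reads of mt-Nd6 and reads of RNA from the opposite strand at this place, including 14 bases shared with mt-Nd5, cannot be told apart.

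**Figure D5:**
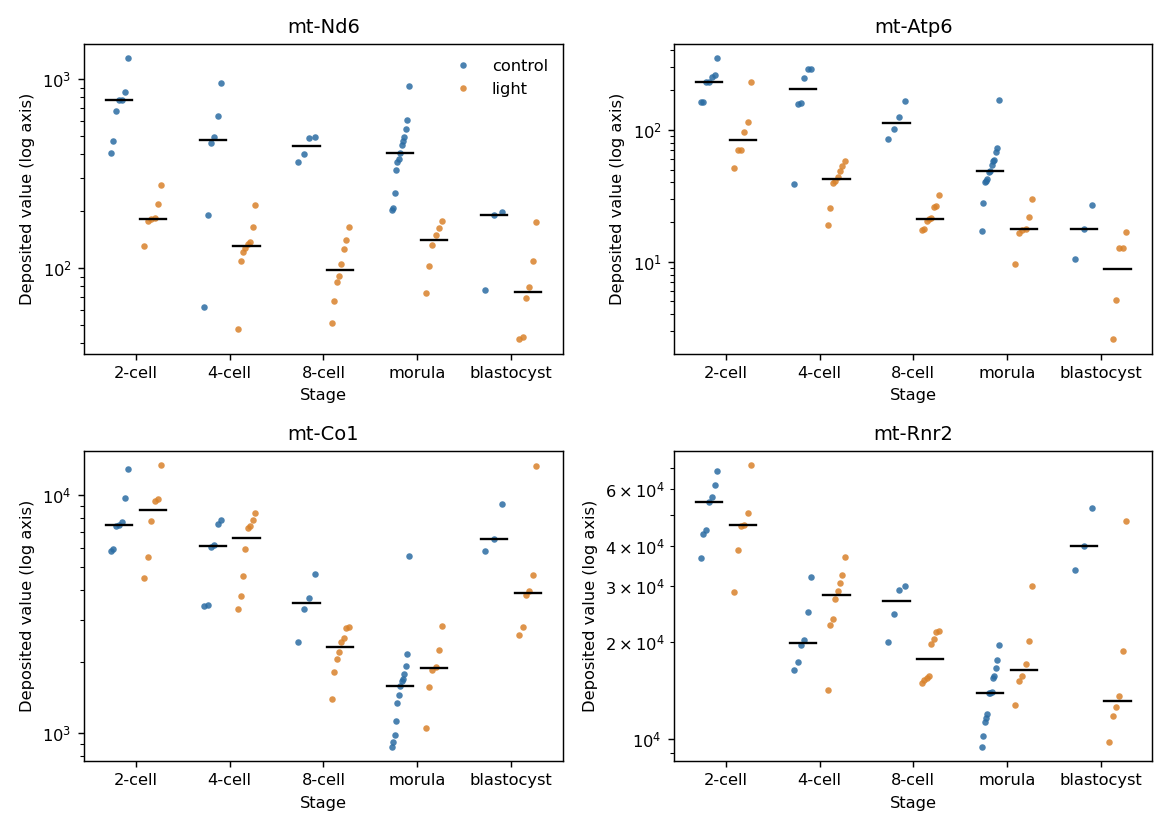
Deposited values of mt-Nd6, mt-Atp6, mt-Co1 and mt-Rnr2 in each library (log axis) by stage, in control (blue) and light (orange), with the group median as a line; 1 light blastocyst library at 0 for mt-Atp6 is not drawn. Light mt-Nd6 lies below control at the 2-cell, 8-cell and morula stages without overlap, whereas mt-Co1 and mt-Rnr2 overlap at all 5 stages.

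Of the other complex I genes, mt-Nd1, mt-Nd2, mt-Nd4 and mt-Nd5 were called lower in light in 8-cell embryos. For mt-Nd1 (chrM:2751-3707) the 4 control 8-cell values were 2262, 2224, 1612 and 2828 and the light values ran from 536.3 through 774.8 to 1070, with no overlap. The log2 fold change was -1.47 ± 0.20 (adjusted p = 5.3e-05). For mt-Nd2 (chrM:3914-4951) the control values were 1259, 1368, 1052 and 1381 and the light values ran from 370.3 through 517.7 to 704.0, also with no overlap, a log2 fold change of -1.29 ± 0.20 (adjusted p = 0.00023). For mt-Nd5 (chrM:11742-13565) they were 2139, 2533, 1568 and 2458 in control and 678.7 through 945.2 to 1453 in light, a log2 fold change of -1.19 ± 0.21 (adjusted p = 0.00082), and again no light library reached a control library. mt-Nd4 (chrM:10167-11544), of which 876 bases have the copy, was called at 3 stages, with -1.04 ± 0.26 in 2-cell, -1.26 ± 0.30 in 4-cell and -1.09 ± 0.20 in 8-cell embryos.

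In 2-cell libraries mt-Nd1 had values from 3756 through 6043 to 11442 in control and from 1621 through 2801 to 6737 in light. The groups overlapped, and the log2 fold change of -1.05 ± 0.27 (adjusted p = 0.0094) was close to the 2-fold limit. Its call was lost without control library 12, light library 9 or light library 12, and also after quantile normalization (-0.26, adjusted p = 0.33), scaled to the genes outside CT010467.1 and Gm42418 (-0.98) and in DESeq2 (-0.93). The mt-Nd4 values at that stage, 1820 through 2596 to 4502 in control and 746.1 through 1330 to 2503 in light, overlapped too, and its call was lost without any of those libraries or light library 10, after quantile normalization (-0.59), scaled to those outside genes (-0.98) and in DESeq2 (-0.96). In 4-cell embryos the call of mt-Nd4, with 635.5 through 1988 to 2868 in control and 496.0 through 649.7 to 1200 in light, was lost in 9 of 14 omissions of a library and without the filter (adjusted p = 0.10 in limma). In 8-cell libraries its call was lost without control library 4 and under no other alternative. mt-Nd3 and mt-Nd4l, both at low values, were called at no stage, and the log2 fold change of mt-Nd3 was -1.66, -2.37, -1.85, -2.28 and 0.59 in order of stage, with adjusted p between 0.069 and 0.53. That of mt-Nd4l was -1.09, -1.47, -1.47, -0.28 and -0.46.

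In blastocysts mt-Nd5 was called lower, with control values of 1888, 3879 and 4394 and light values from 771.5 through 1073 to 2095. Only 1 light library, 23, exceeded the lowest control library, and the log2 fold change was -1.46 ± 0.36 (adjusted p = 0.021). The call was lost without control library 2 or 3, with pseudocount 0.1, without the filter, under each other scaling and in both count tests, whose log2 fold changes were -0.71 (edgeR, adjusted p = 0.38) and -0.72 (DESeq2, adjusted p = 0.33).

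mt-Cytb (chrM:14145-15288) encodes cytochrome b of complex III and was among the most abundant messenger RNAs. Control 4-cell values ran from 2111 through 6095 to 7504 and light values from 1257 through 2364 to 3337, with overlap through control library 4 alone, which had 2111. The log2 fold change was -1.13 ± 0.26 (adjusted p = 0.027). In 8-cell embryos control values were 3155, 3923, 2099 and 4221 and light values ran from 1046 through 1596 to 2215, a log2 fold change of -1.05 ± 0.20 (adjusted p = 0.0014). Both calls were lost in 3 omissions of a library (4-cell control 1 and 5 and light 13, 8-cell control 2 and 4 and light 6). After quantile normalization they were lost too, at -0.58 (adjusted p = 0.23) in 4-cell and -0.94 in 8-cell libraries, and the 4-cell call was lost without the filter (adjusted p = 0.087). The 2-cell, morula and blastocyst differences of -0.81, -0.80 and -0.94 were not called.

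Complex IV, cytochrome c oxidase, has mt-Co1, mt-Co2 and mt-Co3 as its catalytic core, of which mt-Co2 and mt-Co3 were called and mt-Co1 was not. mt-Co1 (chrM:5328-6872), the most abundant messenger RNA gene, was called at no stage. Its 2-cell values ran from 5821 through 7535 to 12936 in control and from 4501 through 8654 to 13377 in light, a log2 fold change of 0.00 ± 0.22. The 4-cell values, 3444 through 6135 to 7854 and 3340 through 6609 to 8412, overlapped almost throughout (0.08 ± 0.24). In 8-cell libraries mt-Co1 was lower by less than 2-fold, with control values of 3331, 3709, 2427 and 4653 and light values from 1390 through 2308 to 2800 (-0.65 ± 0.18, adjusted p = 0.025). Morula values, 879.1 through 1587 to 5572 in control and 1056 through 1881 to 2820 in light, overlapped (0.23 ± 0.27), as did those of blastocysts, with 5862, 9181 and 6564 in control and 2590 through 3896 to 13276 in light (-0.70 ± 0.39).

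mt-Co2 (chrM:7013-7696), which carries the copper site that accepts electrons from cytochrome c, was called at 2 stages. Control 4-cell values ran from 14.4 through 105.6 to 268.4 and light values from 5.88 through 16.6 to 27.5, with a log2 fold change of -2.24 ± 0.56 (adjusted p = 0.041). This call was lost in 12 of 14 omissions of a library, with pseudocount 0.1 (adjusted p = 0.060) and without the filter (adjusted p = 0.091). In 8-cell embryos control values were 47.2, 74.0, 59.2 and 66.7 and light values ran from 3.47 through 11.7 to 24.9, without overlap (-2.38 ± 0.55, adjusted p = 0.0069). mt-Co3 (chrM:8607-9390) was called in 2-cell libraries, with 44.8 through 59.4 to 123.9 in control and 9.50 through 16.8 to 40.0 in light, without overlap (-1.73 ± 0.48, adjusted p = 0.018). In 8-cell embryos it had 30.5, 43.1, 24.4 and 29.6 in control and 0 through 5.26 to 17.1 in light (-2.54 ± 0.71, adjusted p = 0.025), a call lost without control library 1, 2 or 4 and with pseudocount 0.1 (adjusted p = 0.072). Both genes have an identical nuclear copy along nearly their whole length. For mt-Co1, Gm29216 matched 483 of 1545 bases with 1 mismatch, and Gm13340 matched all 1545 bases at 97.6% identity.

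Complex V, the ATP synthase, takes the proton channel subunit of mt-Atp6 (chrM:7927-8607) and the small subunit of mt-Atp8 (chrM:7766-7969) from this genome. mt-Atp6 was called at 3 stages. Control 2-cell values ran from 162.4 through 231.6 to 349.7 and light values from 51.6 through 83.1 to 228.6, overlapping only through light library 15 (-1.29 ± 0.35, adjusted p = 0.014). In 4-cell libraries control values ran from 38.8 through 202.2 to 289.7 and light values from 19.1 through 42.4 to 57.6. They overlapped only through control library 3, and the log2 fold change was -2.05 ± 0.44 (adjusted p = 0.018), a call lost without control library 5. In 8-cell embryos control values were 101.8, 165.0, 85.9 and 124.3 and light values ran from 17.4 through 21.1 to 31.8, with no overlap (-2.32 ± 0.38, adjusted p = 0.00045). The differences of -1.44 ± 0.43 in morulae and -1.49 ± 0.84 in blastocysts were not called. mt-Atp8, with 907 reads over all libraries, had differences of -0.59, -1.83, -1.38 and -0.49 at the 4 earlier stages, none of them called, and was not tested in blastocysts.

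Some annotated nuclear copies were lower in light as well. Of the 7 copies, those called lower in light numbered 2 in 2-cell, 2 in 4-cell and 6 in 8-cell libraries, 1 for morulae and none for blastocysts in limma, where 4.96%, 0.333%, 3.3%, 0.821% and 4.98% of all genes were called lower. Gm28439, the copy of mt-Nd4, was called at the 4 earlier stages, with log2 fold changes of -1.88, -2.78, -1.94 and -1.91. Its values ran from 84.2 to 117.1 in the 4 control and from 18.3 to 41.1 in the 8 light 8-cell libraries. Other copies followed a called gene less closely. In 2-cell libraries Gm10925 differed by -0.24 (adjusted p = 0.70 in limma), where mt-Atp6 had -1.29. In 4-cell libraries Gm28661 differed by -0.94 (adjusted p = 0.32 in limma), where mt-Co2 had -2.24. Both copies were called lower in 8-cell libraries, at -1.22 and -1.32, and Gm10925 also in 4-cell libraries, at -1.48. Reads of a copy and of its mitochondrial source cannot be told apart where the sequences are identical.

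Each of the ribosomal RNA genes was called at 1 stage, mt-Rnr1 in 8-cell embryos and mt-Rnr2 in blastocysts. mt-Rnr1 (chrM:70-1024) was called lower in 8-cell embryos, with 2099, 2647, 1638 and 2583 in control and 809.4 through 1021 to 1250 in light. No light library reached a control library, and the log2 fold change was -1.09 ± 0.16 (adjusted p = 0.00017). In 2-cell libraries it was lower by less than 2-fold, from 3004 through 4657 to 8022 in control and from 1495 through 2442 to 4777 in light (-0.81 ± 0.24, adjusted p = 0.029). The 4-cell values, 401.0 through 1213 to 5912 in control and 765.3 through 1314 to 1670 in light, overlapped (-0.22 ± 0.37), as did those of morulae, 407.4 through 837.1 to 2226 and 627.7 through 798.0 to 857.0 (-0.32 ± 0.29). In blastocysts mt-Rnr1 had 146.2, 309.3 and 204.2 in control and 211.9 through 449.5 to 1674 in light. The difference of 1.15 ± 0.49 was not called with the deposited scaling (adjusted p = 0.16) and was called under 5 others, with 1.92 scaled to the genes outside CT010467.1 and Gm42418 (adjusted p = 0.011), 1.72 after quantile normalization (0.013), 1.82 with median ratios (0.014), 2.02 in edgeR (0.038) and 2.00 in DESeq2 (0.00077).

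mt-Rnr2 (chrM:1094-2675) was the most abundant of all 28 genes. Its values ran from 36584 through 54755 to 68221 in control and from 28745 through 46244 to 71268 in light in 2-cell embryos, with a log2 fold change of -0.18 ± 0.18. In 4-cell libraries they ran from 16403 through 19946 to 31834 and from 14195 through 28094 to 36756 (0.31 ± 0.20). Neither difference was called, nor were those of 8-cell embryos (-0.52 ± 0.12, adjusted p = 0.0092, below 2-fold) and morulae (0.38 ± 0.16). In blastocysts mt-Rnr2 was called lower in light, with control values of 33575, 39781 and 52315 and light values from 9752 through 13092 to 47846 (-1.35 ± 0.39, adjusted p = 0.046). Light library 23, with 47846, was the only light library above 18818. The call was lost under each other scaling, with pseudocount 0.1, without the filter and in edgeR and DESeq2. It was also lost without control library 2 or 3 or any light library but 23. After quantile normalization the difference was 0.38.

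The light effect on mt-Rnr2 was the only one of the 28 to be called as different between consecutive stages with the deposited scaling and pseudocount 1. Fitted over all 67 libraries, the light effect in blastocysts minus that in morulae was -1.73 ± 0.32 on the log2 scale (adjusted p = 0.00060), where 1.82% of all genes were called for this contrast. No mitochondrial gene was called in limma for the contrasts of 4-cell with 2-cell, 8-cell with 4-cell and morula with 8-cell, against 6.36%, 2.51% and 1.65% of all genes, and 1, 2 and 2 genes had an unadjusted p below 0.05. With values scaled to the genes outside CT010467.1 and Gm42418, 3 genes were called for the contrast of morula with 8-cell and 4 for that of blastocyst with morula, and with pseudocount 0.1 the latter had 2. Other calls at one stage and not at the next were thus not shown to be differences between the stages under the deposited scaling and pseudocount 1. Trophectoderm genes summed to between 983 and 9584 CPM in control and between 9606 and 14737 in light blastocysts, and the part of cell type in this difference was not tested.

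Transfer RNAs carry amino acids to the mitochondrial ribosome, and their genes are the shortest of the group. Their totals over all libraries ran from 14 (mt-Tl1) to 11497 (mt-Tq), and between 8 and 12 of the 13 passed the filter at a stage. Of these, mt-Te (glutamate, chrM:14071-14139, minus strand) was called in morulae and mt-Tp (proline, chrM:15356-15422, minus strand) in 8-cell embryos. Their whole genes are printed without capitals, to show the short targets behind these calls:
mt-Te: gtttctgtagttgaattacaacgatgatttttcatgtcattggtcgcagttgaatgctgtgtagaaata
mt-Tp: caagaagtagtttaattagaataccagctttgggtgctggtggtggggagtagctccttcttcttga
mt-Te adjoins mt-Nd6 on the same strand with no base between them. As SMART-seq2 does not mark the strand, reads of mt-Te or mt-Tp and reads of RNA from the opposite strand cannot be told apart. Reads of a cut transfer RNA were not separated from reads of its precursor either.

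In morulae mt-Te had 4.25 through 16.9 to 34.5 in control and 0 through 1.85 to 3.15 in light, from a median of 21 and 2 reads. The groups did not overlap, and the log2 fold change was -2.75 ± 0.62 (adjusted p = 0.021). The call was lost without light library 12 and in edgeR (adjusted p = 0.064). Its differences at the 2-cell, 4-cell, 8-cell and blastocyst stages, -2.13, -0.44, -1.88 and -1.45, were not called. The 2-cell groups did not overlap either, with mt-Te at 8.97 or more in control and 5.01 or less in light. mt-Tp had 41.6, 51.1, 25.5 and 53.4 in control and 5.09 through 12.6 to 21.9 in light 8-cell libraries, without overlap (-1.67 ± 0.53, adjusted p = 0.044), a call lost in 9 of 12 omissions of a library and with pseudocount 0.1 (adjusted p = 0.053). mt-Tq (glutamine) and mt-Ty (tyrosine), the transfer RNA genes with the most reads, were called at no stage, with differences between -0.48 and 0.90 for mt-Tq and between -0.84 and 0.76 for mt-Ty. mt-Tl1, mt-Tn and mt-Tc had 14, 42 and 24 reads over all libraries and were called in no comparison of light with control. Of these, mt-Tn had the most reads. It was at 0 in 2 of 7 control and 6 of 6 light 2-cell libraries. In 4-cell libraries it was at 0 in 2 of 6 and 7 of 8, and in 8-cell libraries in 1 of 4 and 6 of 8. For morulae the numbers were 8 of 13 and 6 of 6, and for blastocysts 3 of 3 and 6 of 6. Such numbers of libraries without a read were not tested. The other 6, mt-Ti, mt-Tm, mt-Tw, mt-Ta, mt-Tt and mt-Ts1, had between 230 and 1618 reads and were called in no comparison of light with control.

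Between consecutive stages the mitochondrial genes were compared within each group, and these comparisons share libraries with each other and with those of light. In control embryos 2 of 27 genes, mt-Rnr1 and mt-Rnr2, fell from the 2-cell to the 4-cell stage, with log2 fold changes of -1.60 ± 0.41 and -1.28 ± 0.15, where 32.3% of all genes were called lower, and 5 genes were called without control 4-cell library 1. None of 26 was called in limma from the 4-cell to the 8-cell stage (6.31% of all genes), and 2 had an unadjusted p below 0.05, while 2 were called without control 4-cell library 3. From 8-cell to morula 2 of 26 fell, mt-Rnr1 with -1.23 ± 0.35 and mt-Co1 with -1.14 ± 0.31 (7.49% of all genes called lower), and both calls were absent without control 8-cell library 2 or 4. From morula to blastocyst 2 of 26 rose and 7 fell, where 6.75% and 5.11% of all genes did. mt-Rnr2 rose by 1.60 ± 0.19 and mt-Co1 by 2.18 ± 0.36, without overlap. The log2 fold changes of the other 7 genes were -2.16 ± 0.42 for mt-Rnr1, -1.57 ± 0.37 for mt-Nd2, -3.20 ± 0.77 for mt-Nd3, -1.47 ± 0.40 for mt-Nd6, -2.52 ± 0.53 for mt-Tq, -2.61 ± 0.77 for mt-Tw and -2.76 ± 0.82 for mt-Ta, so the genes of the small and the large ribosomal RNA moved in opposite directions. Without control blastocyst library 1 only 5 genes were called for this step. From 2-cell to 4-cell the median of all genes was -0.72 and that of the mitochondrial genes -0.59. From 4-cell to 8-cell they were -0.56 and -0.44, all with the deposited scaling. With values scaled to the genes outside CT010467.1 and Gm42418 they were -0.50 and -0.26, then -0.01 and 0.23. The sign of the mitochondrial median for the 4-cell to 8-cell step thus depends on the scaling.

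In light embryos mt-Rnr1, mt-Co2, mt-Atp6 and mt-Co3 fell from the 2-cell to the 4-cell stage (4 of 25, against 29% of all genes called lower), with log2 fold changes of -1.02, -1.46, -1.23 and -2.14. Without light 2-cell library 15 only 1 gene was called. From the 4-cell to the 8-cell stage mt-Nd1, mt-Nd2, mt-Ty, mt-Co1 and mt-Nd5 fell (5 of 25, against 9.94%), led by mt-Ty with -2.06 ± 0.37 and mt-Co1 with -1.39 ± 0.18. None of 25 was called in limma from 8-cell to morula (11.8%), and 3 had an unadjusted p below 0.05. From morula to blastocyst mt-Co1 rose by 1.25 ± 0.32, as it did in control, and mt-Tq, mt-Nd2 and mt-Tt fell, with log2 fold changes of -1.20, -1.06 and -2.25 (1 and 3 of 24, against 5.02% of all genes called higher and 15.7% called lower). mt-Rnr2, which rose in control, differed by -0.14 ± 0.33 in light. With values scaled to the genes outside CT010467.1 and Gm42418 only 1 gene was called for the first of these steps and 1 for the second. For the last step 2 were called without light morula library 6 or light blastocyst library 24 or 26.

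Nuclear genes that serve mitochondrial gene expression were read from 5 lists, for the light against control comparisons of the same fits. Of all genes, 5.53% were called higher and 4.96% lower in 2-cell, 1.12% and 0.333% in 4-cell, 5.91% and 3.3% in 8-cell, 0.355% and 0.821% in morula and 0.353% and 4.98% in blastocyst libraries. Of 26 tested genes for mitochondrial DNA maintenance and transcription, 3 rose and none fell in 2-cell libraries. Polrmt, the mitochondrial RNA polymerase, went from 28.1 ± 17.5 in control to 194 ± 69.5 in light (log2 fold change 2.97 ± 0.48), and Tfam, which packs mitochondrial DNA and starts its transcription, from 2.27 ± 3.98 to 29.5 ± 19.6 (3.48 ± 0.84). In 8-cell embryos 2 of 25 rose, Tefm, an elongation factor of that polymerase (2.40 ± 0.69), and Rnaseh1 (2.32 ± 0.67), and none fell. In the other 3 stages no gene of this list was called.

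Of the genes for processing and stability of mitochondrial RNA, 4 rose and 2 fell of 41 in 2-cell libraries, with Trmt10c, a subunit of the enzyme that cuts transfer RNA 5' ends, at 2.10 ± 0.51 and Trnt1, which adds the CCA end, at 1.60 ± 0.47. In 8-cell embryos 3 rose and 1 fell of 42, with Fastkd2 at 2.68 ± 0.80 and Angel2 at -2.10 ± 0.56. Of 21 translation factors 5 rose in 2-cell libraries, among them Noa1 (1.41 ± 0.42) and Mtrf1l (2.39 ± 0.72), and none was called at the other stages. Of 76 nuclear subunits of the respiratory complexes, 6 rose and 1 fell in 2-cell embryos, where Atp5a1, the alpha subunit of the ATP synthase, rose by 1.99 ± 0.30 and Atp5b by 1.26 ± 0.24. In 8-cell libraries 5 rose and none fell, with Sdha at 2.79 ± 0.50 and Atp5a1 at 1.07 ± 0.24, and in morulae 4 fell, with Cox6b1 at -1.32 ± 0.31 and Cox8a at -1.24 ± 0.30. The medians of the 5 lists lay between 0.45 and 0.84 in 2-cell and between 0.43 and 0.91 in 8-cell embryos, against 0.00 and 0.16 for all genes. In 4-cell embryos and morulae the nuclear subunits of the respiratory complexes had medians of -0.72 and -0.36, and the other 4 lists lay between 0.21 and 0.66 and between 0.46 and 0.71, against 0.13 and 0.10 for all genes. In blastocysts these subunits had a median of 0.12, and the other lists lay between -0.74 and -0.63, against -0.64.

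Among 22 aminoacyl-tRNA synthetases, which load the transfer RNAs, Lars2, the leucine enzyme, fell at the 4 earlier stages, with log2 fold changes of -1.80 ± 0.23, -1.34 ± 0.26, -2.02 ± 0.15 and -2.28 ± 0.34. Its mean value was 12835 in control and 3384 in light in 2-cell libraries. Hars2, the histidine enzyme, rose in the same embryos from 2.39 to 64.9 (4.05 ± 0.80). In these 4 comparisons Lars2 was lower where the ratio of Gm42418 to CT010467.1 was lower on average, and the part of that ratio in its difference was not tested. Gars rose in 4-cell embryos (1.62 ± 0.41) and Tars2 in 8-cell libraries (3.19 ± 0.79). In blastocysts none of the genes of the 5 lists was called in limma, where the median of all genes was -0.64.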

How the data were processed

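RNA of 67 libraries was analysed. The authors aligned reads with HISAT2 and counted them with HTSeq 0.9.1 on mm9, per the labels, and deposited signal values. The study's methods name RPKM, but the deposited signal was whole reads over a size factor: values times that factor were whole within 0.01 for at least 99.97% of genes in each library. Zeros count as whole in this percentage, and the factor was found from the same values. The annotation, the strand setting and the treatment of reads with several matches are not given in the sources used here. Counts in this text are these recovered reads, with the few other values rounded, and intervals cover counting error only. The closest pair of libraries of a group differed by a chi-square per degree of freedom of at least 7.39, so none was counted as a repeat.

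In R 4.3.3, lmFit and eBayes of limma 3.58.1, with a mean-variance trend, were applied to log2(value + 1), as for normalized values, for genes above 1 in at least 3 libraries compared. Fold changes on this scale understate those of low genes. Genes were called at an adjusted p below 0.05 together with a 2-fold change, as the study did. Stages were fitted separately, the change of the light effect over all 67 libraries, with no covariate, since no batch is labelled. Shares, compositions and ratios have no test.

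Every mitochondrial gene is accounted for, and values are given for those called, the ribosomal RNA genes, mt-Nd6 and the 2 most abundant messenger RNA genes. Up to 2 called genes of each nuclear list and stage were named by smallest p. The members and lists were chosen with earlier results of these data known. Symbols were looked up in GENCODE M21 (GRCm38) for positions and sequences, and its transcripts were compared with BLAST+ 2.17.0 for copies of at least 99% identity over 100 bases. The alternatives were pseudocount 0.1, no filter, a mean above 5, 3 other scalings, edgeR 4.0.16 and DESeq2 1.42.0 on recovered reads, a replicate block, and the omission of each library in turn. Python 3.11.15 with pandas 2.3.3, numpy 2.4.6 and matplotlib 3.10.9 made summaries and figures.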

Additional observations from a re-analysis of the deposited data

Results flagged for a closer look

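A library lay far from the rest of its group in 12 of the 104 groups of values examined. For independent normal values the rule flags about 1 in 20 groups. The groups here share libraries, so this rate does not give the number expected by chance. The 13 control morulae and the 3 control blastocysts were not examined in this way, and among the former library 26 had the highest mt-Co1 (5572) and mt-Nd1 (4453) values and the lowest ribosomal share (43.1%). Control 2-cell library 12 was the highest of its group for mt-Rnr1 (8022), mt-Cytb (12503), mt-Nd4 (4502) and mt-Co3 (123.9), with the other 6 libraries at or below 4976, 8304, 2935 and 71.8. Light blastocyst library 23 was the highest of its group for mt-Rnr2 (47846), mt-Rnr1 (1674), mt-Co1 (13276) and mt-Cytb (3484), with the other 5 at or below 18818, 672.2, 4641 and 1538. Control 4-cell library 1 had a mitochondrial share of 7.33% (95% Wilson interval 7.28% to 7.37%), with the others between 3.09% and 4.63%. Light 2-cell library 15 had an mt-Atp6 value of 228.6, above the others, which reached 114.2. Light 8-cell library 5 had an mt-Co3 value of 17.1, above the others, which reached 8.05. Light 4-cell library 13 had an mt-Rnr1 value of 765.3, below the others, which began at 1253. With the deposited scaling and pseudocount 1, the light effect on mt-Rnr2 differed between blastocyst and morula by -1.73 on the log2 scale, tested as an interaction in limma. The blastocyst call of mt-Rnr2 itself was lost under each other scaling.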

How the results depend on the processing

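Shared replicate numbers did not pair the samples at the 2-cell, 4-cell and morula stages: deviations of same-numbered libraries correlated between -0.087 and 0.069, and none correlated best with its own number. With the number as a replicate block, 0 genes of any kind were called there, 0 of the mitochondrial genes at each of the 3 stages, and mt-Co1 at the 4-cell stage and mt-Rnr1 in morulae changed sign to -0.67 and 0.32. No paired analysis was possible at the other stages because their groups share no numbers. Leaving out a library gave 3 to 9 called mitochondrial genes at the 2-cell stage (3 without control 12, light 9 or light 12, 9 without light 15), 0 to 9 at the 4-cell (0 without control 5, 1 without control 1 or light 13, 9 without control 3, 2 without control 6 or light 1, 5, 6, 7 or 14), 7 to 11 at the 8-cell (7 without control 4), 1 to 3 in morulae (1 without light 12) and 0 to 4 in blastocysts (0 without control 2 or 3, 4 without light 23, 1 without any other light library). Between stages it gave 2 to 5, 0 to 2, 0 to 3 and 5 to 10 in control and 1 to 4, 4 to 5, 0 and 2 to 5 in light, the 5 of the first control step without 4-cell library 1, the 2 of the second without 4-cell library 3, and the 2 of the last light step without morula 6 or blastocyst 24 or 26. It turned mt-Co1 at the 2-cell stage to 0.050, 0.12, 0.16, 0.10 and 0.0011 (without control 8, control 12, light 9, light 12 and light 14; range from -0.15), mt-Co1 at the 4-cell stage to -0.054 and -0.053 (control 2 and 3; range to 0.19) and mt-Rnr1 there to 0.18 (control 1; range from -0.60). DESeq2 called 8 genes at the 2-cell stage, 9 at the 4-cell, 6 in morulae and 2 higher in blastocysts, and edgeR called 8 at the 4-cell, 1 in morulae and 1 higher in blastocysts. Without the filter 1 gene was called at the 4-cell stage, 0 in blastocysts and 2 for the last light step. With pseudocount 0.1, 0 were called in blastocysts and 2 for the change of the light effect from morula to blastocyst. Values scaled to the genes outside CT010467.1 and Gm42418 gave 1 higher in blastocysts, 1, 1 and 5 for the first 3 control steps, 1, 1 and 2 for the first, second and last light steps, and 3 and 4 for the last 2 changes of the light effect. Quantile normalization gave 4 in morulae, 1 higher in blastocysts, 1, 1 and 4 for the control steps and 1, 1 and 2 for the light steps, and median ratios gave 1 higher in blastocysts. In that order of outside genes, quantile, edgeR and DESeq2, mt-Co1 in blastocysts turned to 0.072, 0.40, 0.12 and 0.097, and at the 2-cell stage outside genes, quantile and DESeq2 gave 0.063, 0.75 and 0.026. Quantile normalization turned mt-Rnr1 and mt-Rnr2 at the 4-cell stage to 0.074 and -0.032, and mt-Rnr2 in blastocysts to 0.38. With all genes as denominator the mean mitochondrial share was 2.68%, 1.76%, 1.68%, 0.770% and 2.10% in control and 2.27%, 1.66%, 1.12%, 1.02% and 1.19% in light in order of stage, and as a ratio to the other genes 9.71% in control blastocysts. mt-Nd6 at the 2-cell stage and in morulae lost its call only under the block, and at the 8-cell stage under none of these alternatives, as did mt-Rnr1, mt-Nd1, mt-Nd2, mt-Co2, mt-Atp6 and mt-Nd5 there. The cause of these changes was not tested. With 14, 42 and 24 reads over all libraries, mt-Tl1, mt-Tn and mt-Tc were called in no comparison of light with control, and how often they had a read was not tested.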
